A study of Rattus norvegicus with 9 samples.

Results

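The 6 genes described here are the platelet-derived growth factor (PDGF) family of the rat: the receptor genes Pdgfra and Pdgfrb and the ligand genes Pdgfa, Pdgfb, Pdgfc and Pdgfd. They were chosen by gene symbol from the 26401 genes of the expression table. All 6 were present and all 6 reached the mean of 1 FPKM needed for testing, as did 11376 genes in all. FPKM counts the fragments of a gene after scaling for transcript length and library size, so levels can be compared between genes.

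RNA was sequenced from primary S31 vascular smooth muscle cells, wild type, a line derived from cardiac microvessels of Wistar Kyoto males. There were 9 libraries in 3 sets of 3. Every set was held without serum for 48 h in medium with lactalbumin hydrolysate, and the controls (LH-NS columns) then had fresh medium of that kind with no growth factor and were harvested at 24 h. The sets with growth factor received rat PDGF-BB or human IGF-1, both recombinant and at 25 ng/ml. The sample records and the table disagree on which is which: the records titled PDGF-BB, with harvest at 48 h, point to the columns named IGF-NS, and the records titled IGF-1, with harvest at 24 h, point to the columns named PDGF-NS. The sets are therefore called here by their columns, and no set is tied here to one of the factors. By the records a set harvested at 48 h is compared with controls harvested at 24 h, so that for the IGF-NS columns time and growth factor cannot be told apart. If the column names are right and the records wrong, that holds for the PDGF-NS columns instead. In either case the treated sets differ from each other in harvest time as well as in growth factor. Every difference between PDGF-NS and IGF-NS below carries that limit. The sources do not say whether the 3 libraries of a set came from separate cultures. If they did not, a p-value reflects no more than the scatter of these libraries, which may be technical.

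PDGF ligands are secreted dimers that bind receptor tyrosine kinases on the cell surface. PDGF-A and PDGF-B chains are cut to their active form inside the cell, while PDGF-C and PDGF-D carry an extra CUB domain that proteases remove outside it. The receptor alpha binds the A, B and C chains, the receptor beta binds mainly B and D, and the receptors pair with each other or with themselves. In vessel walls PDGF-B from endothelium draws in mural cells that carry receptor beta, and PDGF-BB is a classical stimulus for growth and migration of cultured smooth muscle cells and for loss of their contractile proteins.

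Promoter sequences are shown for the 3 members whose RNA differed most clearly between sets, with the RefSeq start site of assembly GRCr8 as the end point. Each window holds the 250 bases before that start, written 5′ to 3′ on the strand of the gene. Capitals mark the match to a GC box or a CCAAT box, here in both cases read from the opposite strand (CCGCCC and ATTGG). Which start site the S31 cells used was not measured.

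Pdgfra (GRCr8 chr14:33408517-33408766, minus strand): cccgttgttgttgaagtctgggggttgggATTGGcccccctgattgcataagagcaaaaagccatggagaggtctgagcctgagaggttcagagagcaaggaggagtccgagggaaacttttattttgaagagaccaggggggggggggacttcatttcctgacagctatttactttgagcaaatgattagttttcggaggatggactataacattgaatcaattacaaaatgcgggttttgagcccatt

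Pdgfa (GRCr8 chr12:20759116-20759365, plus strand): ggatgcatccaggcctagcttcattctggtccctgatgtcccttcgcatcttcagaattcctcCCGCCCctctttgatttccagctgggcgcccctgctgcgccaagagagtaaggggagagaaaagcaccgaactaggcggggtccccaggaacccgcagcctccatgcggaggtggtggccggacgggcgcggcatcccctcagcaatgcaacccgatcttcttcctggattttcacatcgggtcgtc

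Pdgfd (GRCr8 chr8:11773258-11773507, plus strand): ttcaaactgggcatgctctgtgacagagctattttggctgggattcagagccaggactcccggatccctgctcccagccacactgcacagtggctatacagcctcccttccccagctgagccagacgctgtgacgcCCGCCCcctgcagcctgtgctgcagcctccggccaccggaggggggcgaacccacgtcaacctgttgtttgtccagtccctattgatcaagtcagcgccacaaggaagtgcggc

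Of the 6 members, 5 had a RefSeq window, all but Pdgfrb. The motifs searched, on both strands, were the GC box GGGCGG, bound by SP factors, the CCAAT box CCAAT, bound by NF-Y, the EGR site GCGNGGGCG, which can share letters with a GC box, and the TATA box TATAAA. The Pdgfra window held 1 CCAAT box and was 47.2% G or C. The windows of Pdgfa and Pdgfd held 1 GC box each and were 60.8% and 61.6% G or C, as did that of Pdgfb at 63.6%. The window of Pdgfc, at 56.0%, held none of these motifs. None of the 5 held an EGR site or a TATA box. Among all 27457 RefSeq windows of this length 32.4% held a GC box, 34.3% a CCAAT box, 4.53% an EGR site and 13.1% a TATA box, and the median was 52.0% G or C. A match in this window is a description of its letters and not a site of binding.

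The 9 libraries were similar in the number of genes they detected, from 11047 to 11348 at 1 FPKM or more. Differences between sets were tested with limma on log2(FPKM + 1) over all 11376 genes, and a gene was called when its p-value adjusted by the Benjamini-Hochberg method was under 0.05. In the IGF-NS set against control 24.9% of tested genes were called, 17.4% higher and 7.48% lower. In the PDGF-NS set against control 31.0% were called, 20.7% higher and 10.2% lower. Between the treated sets 15.9% were called, 8.33% higher in PDGF-NS and 7.55% lower. The share of calls that were higher depended on the scaling of the libraries: it was 69.9% for IGF-NS against control as deposited and 48.0% after median ratio scaling, 66.9% for PDGF-NS against control as deposited and 49.4% after quantile normalization, and 52.5% between the treated sets as deposited and 33.2% with all libraries set to a common FPKM sum. The median of all genes was 0.15 (log2) in IGF-NS against control and 0.13 in PDGF-NS against control, and the directions below are to be read against those shifts. Both comparisons against control use the same 3 control libraries and are not independent of each other.

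The PDGF family was one of unequal levels in these cells. Pdgfrb was the most abundant member in every library and Pdgfb was at the bottom of the order of means in every set. Pdgfra was at 11.5 FPKM in control and rose to 1.88 times that in IGF-NS and 2.43 times in PDGF-NS, while Pdgfa fell in both and Pdgfd fell in the PDGF-NS set. Against control, 2 of 6 members were called in IGF-NS (1 higher, 1 lower) and 4 of 6 in PDGF-NS (2 higher, 2 lower). Between the treated sets 2 of 6 were called, 1 higher and 1 lower in PDGF-NS. With 6 members these counts stand beside background shares of 24.9%, 31.0% and 15.9% of all genes, and nothing particular to the family is read from them. The median log2 fold change of the 6 members was 0.01, -0.53 and 0.03 in the 3 comparisons, against 0.15, 0.13 and -0.02 for all tested genes.

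**Figure D1:**
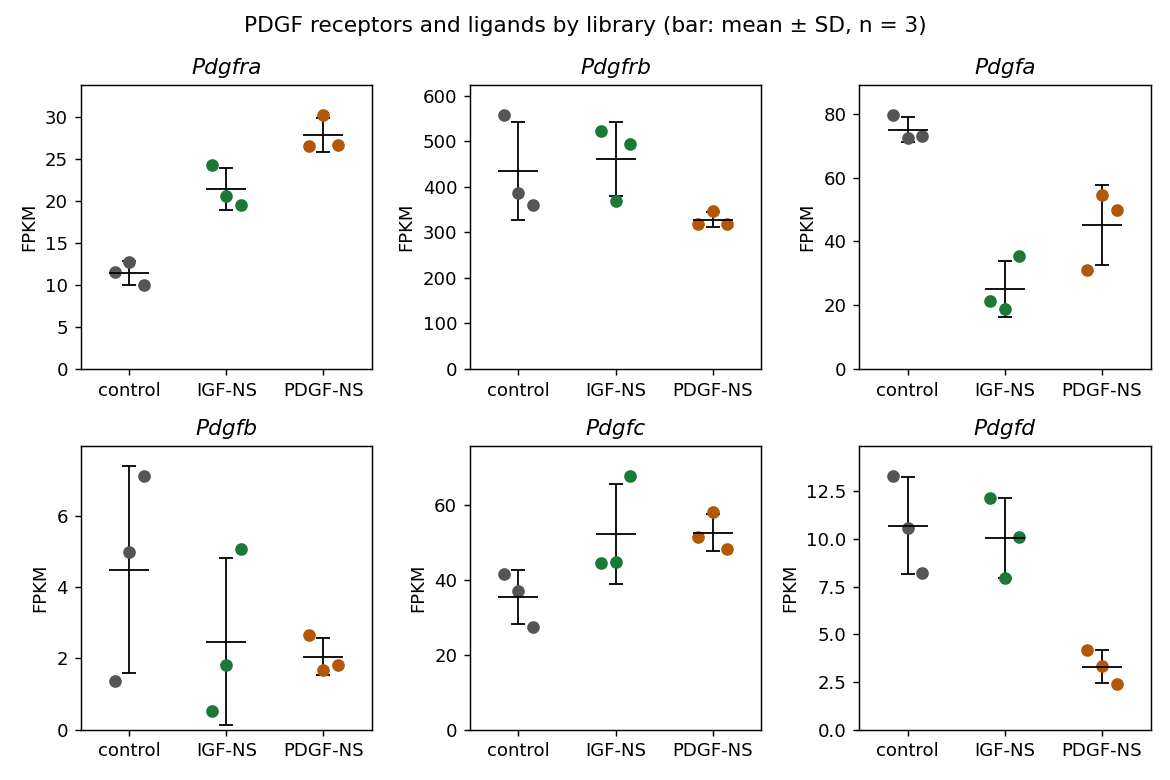
FPKM of each PDGF receptor and ligand gene by library on linear axes that start at 0, with 1 point for each of the 3 libraries of a set and bars for the mean ± SD. Pdgfra was higher in both treated sets, with no overlap between any of the sets, and Pdgfd was at 2.42 to 4.15 FPKM in PDGF-NS against 7.95 to 13.3 in the other libraries.

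Pdgfra (ENSRNOG00000002244) encodes the receptor alpha, which marks fibroblasts and mesenchymal progenitors in many tissues. Its level was 11.6, 12.8 and 9.98 FPKM in the control libraries. It was 24.3, 20.6 and 19.5 FPKM in the IGF-NS libraries and 26.6, 30.2 and 26.7 FPKM in the PDGF-NS libraries. Every treated library was above every control library, and the PDGF-NS libraries were all above the IGF-NS libraries. The means were 11.45 ± 1.41, 21.49 ± 2.52 and 27.87 ± 2.06 FPKM (SD, n = 3), and the SD was small beside the distance from control. Pdgfra rose by 0.85 ± 0.14 on the log2 scale (SE) in IGF-NS (adjusted p = 0.002, limma) and by 1.22 ± 0.14 in PDGF-NS (adjusted p = 0.00014). Both calls held in each of the 19 alternative analyses. The difference between the treated sets was 0.36 ± 0.14, with a 95% interval of 0.06 to 0.67, and did not pass the adjusted threshold (adjusted p = 0.1, limma). Its place among the tested genes moved from above 48.0% of them in control to above 63.6% and 70.4% in the treated sets.

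Pdgfrb (ENSRNOG00000018461) encodes the receptor beta, the receptor of mural cells for PDGF-BB. It was at 557.4, 386.0 and 359.7 FPKM in control, at 522.7, 369.7 and 493.5 FPKM in IGF-NS and at 319.0, 347.6 and 318.0 FPKM in PDGF-NS. Control and IGF-NS libraries overlapped, while the PDGF-NS libraries were all below both. This receptor was above 97.4% to 98.3% of the tested genes in each set. The means were 434.4 ± 107.4, 462.0 ± 81.2 and 328.2 ± 16.8 FPKM (SD, n = 3). None of its differences was called by limma. The log2 difference was 0.10 ± 0.19 in IGF-NS against control (adjusted p = 0.74), -0.38 ± 0.19 in PDGF-NS against control (adjusted p = 0.15) and -0.48 ± 0.19 between the treated sets (adjusted p = 0.12). Their 95% intervals ran from -0.32 to 0.52, from -0.80 to 0.04 and from -0.90 to -0.06. Against control a fall of moderate size in PDGF-NS lies within the error. The interval between the treated sets lay wholly below no change, though that difference did not pass the adjusted threshold. Between the treated sets a call appeared with a common FPKM sum (-0.61, adjusted p = 0.041) and without control 1 (-0.48, adjusted p = 0.047).

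The ratio between the receptor RNAs differed between the sets. Pdgfra made up 2.03%, 3.21% and 2.70% of the summed FPKM of both receptors in the control libraries. In IGF-NS the share was 4.45%, 5.28% and 3.81%. In PDGF-NS it was 7.70%, 8.00% and 7.76%. No sets overlapped, and the PDGF-NS libraries lay close together. The log2 ratio of Pdgfra to Pdgfrb was taken with 1 FPKM added to each gene, unlike the shares. It was -5.11 ± 0.34 in control, -4.35 ± 0.25 in IGF-NS and -3.51 ± 0.03 in PDGF-NS (SD, n = 3). An exact permutation test of the 3 sets gave p = 0.0036, the smallest value its 1680 assignments allow. The pairwise differences were 0.75, 1.59 and 0.84, each with p = 0.1 in a two-sided exact permutation test, also 0.1 after adjustment over the 3 pairs and the smallest that 3 libraries against 3 can give. Receptor beta remained in large excess in RNA in every library.

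**Figure D2:**
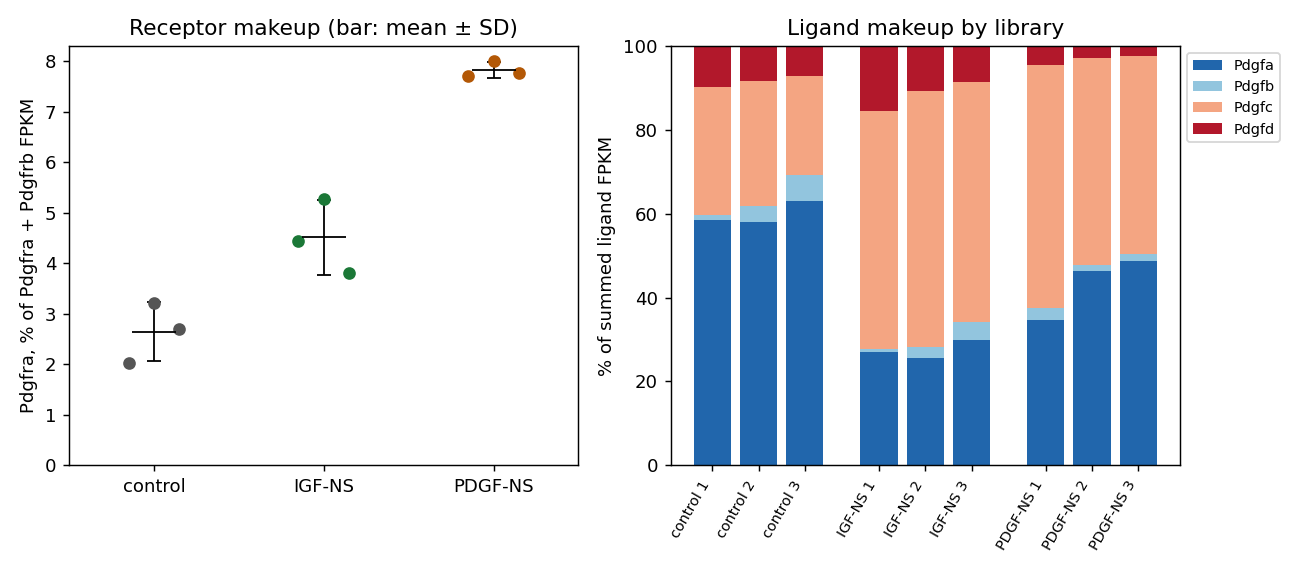
Left, Pdgfra as a percentage of the summed FPKM of Pdgfra and Pdgfrb, by library, with bars for the mean ± SD (n = 3). Right, the 4 ligand genes as percentages of their summed FPKM in each library; Pdgfa made up 57.9% to 63.1% in control and 25.7% to 48.7% in the treated libraries, where Pdgfc made up 47.2% to 61.0%.

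Pdgfa (ENSRNOG00000001312) encodes the A chain, which smooth muscle cells themselves make and which acts through the receptor alpha. It was at 79.6, 72.6 and 73.1 FPKM in control, the highest ligand there. In IGF-NS it was at 21.2, 18.9 and 35.3 FPKM, and in PDGF-NS at 30.9, 54.6 and 49.8 FPKM. All treated libraries were below all controls, and the treated sets overlapped through 1 library each, IGF-NS 3 and PDGF-NS 1. The means were 75.09 ± 3.88, 25.12 ± 8.88 and 45.12 ± 12.56 FPKM (SD, n = 3), and control exceeded IGF-NS 2.99 times and PDGF-NS 1.66 times.

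Pdgfa fell by 1.59 ± 0.25 on the log2 scale in IGF-NS against control (SE; adjusted p = 0.0019, limma), a call that held in all 19 alternatives. It fell by 0.76 ± 0.25 in PDGF-NS against control (adjusted p = 0.043). That call was lost in 7 of 19 alternatives: with no filter on low genes (adjusted p = 0.071) and without control 1, 2 or 3 (0.093, 0.081 and 0.083), IGF-NS 1 (0.056), PDGF-NS 1 (0.14, with a difference of -0.52) or PDGF-NS 3 (0.069). Between the treated sets Pdgfa was higher in PDGF-NS by 0.83 ± 0.25 (adjusted p = 0.049), a call lost in 13 of 19 alternatives. They include leaving out control 1, 2 or 3 (adjusted p = 0.052, 0.071 and 0.067), IGF-NS 1 or 2 (0.15 each), PDGF-NS 2 (0.16) or PDGF-NS 3 (0.17), and the settings without a library left out gave 0.052 to 0.08 where the call was lost.

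Pdgfc (ENSRNOG00000010695) encodes the C chain, one of the latent ligands with a CUB domain. It had the highest mean of the ligands in both treated sets, though in PDGF-NS its libraries overlapped with those of Pdgfa. It was at 41.6, 37.1 and 27.4 FPKM in control, 44.5, 44.9 and 67.8 FPKM in IGF-NS and 51.6, 58.3 and 48.4 FPKM in PDGF-NS. All treated libraries were above all controls, in IGF-NS by a narrow margin except for IGF-NS 3. The means were 35.38 ± 7.23, 52.4 ± 13.4 and 52.74 ± 5.06 FPKM (SD, n = 3), which puts both treated sets near 1.5 times control (1.48 and 1.49). Of these differences the one in PDGF-NS was called (0.58 ± 0.20 on the log2 scale, adjusted p = 0.049, limma) and the one in IGF-NS was not (0.55 ± 0.20, adjusted p = 0.07). The treated sets differed by 0.03 ± 0.20, with a 95% interval of -0.41 to 0.47 (adjusted p = 0.94).

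The Pdgfc call lies at the threshold. It was lost in 15 of 19 alternatives, among them median ratio scaling and quantile normalization (adjusted p = 0.1 each) and a common FPKM sum (0.12). It was also lost without control 2 (0.079), control 3 (0.16), IGF-NS 1 (0.059), IGF-NS 2 (0.052), or PDGF-NS 1, 2 or 3 (0.099, 0.14 and 0.084). The difference stayed between 0.41 and 0.70 on the log2 scale in all of them. In IGF-NS against control the gene passed the threshold without control 1 (0.67, adjusted p = 0.048).

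Pdgfd (ENSRNOG00000029148) encodes the D chain, the other latent ligand, which acts through the receptor beta. It was at 13.3, 10.6 and 8.22 FPKM in control and at 12.1, 7.95 and 10.1 FPKM in IGF-NS. In PDGF-NS it was at 4.15, 3.34 and 2.42 FPKM, below every other library. The means were 10.69 ± 2.54, 10.06 ± 2.09 and 3.30 ± 0.87 FPKM (SD, n = 3), so that control stood at 3.24 times and IGF-NS at 3.05 times the PDGF-NS level. Pdgfd fell by 1.44 ± 0.22 on the log2 scale in PDGF-NS against control (adjusted p = 0.00089, limma) and was lower in PDGF-NS than in IGF-NS, with a difference of -1.36 ± 0.22 (adjusted p = 0.0022). Both calls held in all 19 alternatives, with a smaller size (-0.91 and -0.85) when a pseudocount of 5 in place of 1 was added to these low levels. In IGF-NS against control the difference was -0.07 ± 0.22, with a 95% interval of -0.56 to 0.41 (adjusted p = 0.84).

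Pdgfb (ENSRNOG00000017197) encodes the B chain, which endothelium and platelets are known for and which forms the PDGF-BB that was one of the treatments. Its own RNA was low and scattered. It was at 1.37, 5.00 and 7.12 FPKM in control, 0.517, 1.82 and 5.09 FPKM in IGF-NS and 2.65, 1.69 and 1.81 FPKM in PDGF-NS. All sets overlapped, and the SD was 64.7% of the mean in control and 95.1% in IGF-NS. The log2 differences by limma were -0.72 ± 0.52 in IGF-NS (adjusted p = 0.35), -0.69 ± 0.52 in PDGF-NS (adjusted p = 0.35) and 0.03 ± 0.52 between the treated sets (adjusted p = 0.98). With 95% intervals from -1.88 to 0.45, -1.85 to 0.48 and -1.14 to 1.19, even sizeable changes lie within the error. The added protein itself is not seen by this assay.

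**Figure D3:**
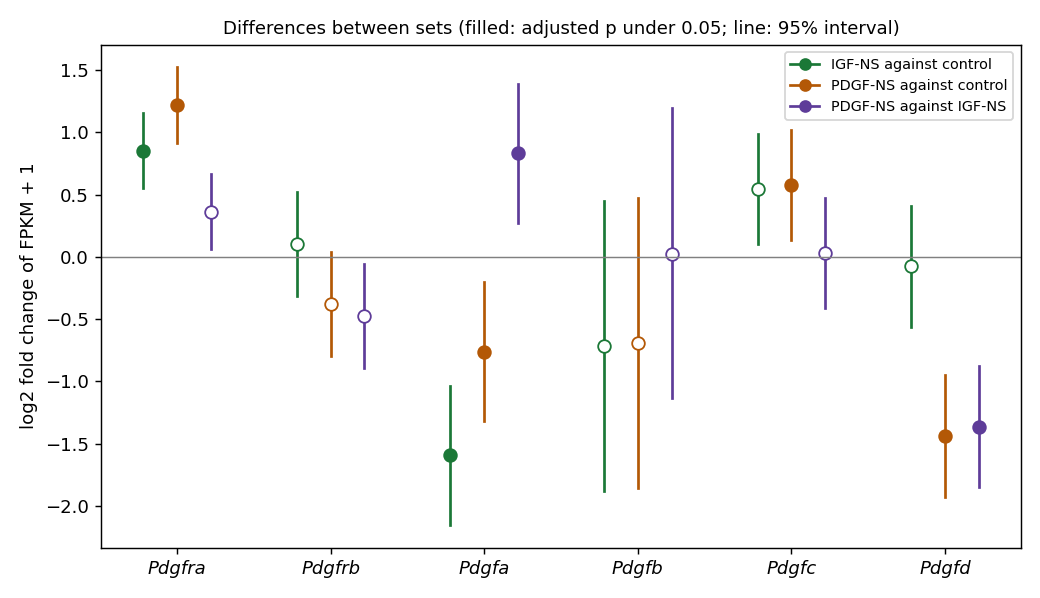
Log2 fold change of FPKM + 1 for each of the 6 genes in the 3 comparisons, with lines for the 95% interval from limma and filled points for an adjusted p under 0.05. Pdgfra was called higher in both treated sets against control, Pdgfa lower in both, and Pdgfd lower in PDGF-NS against either other set.

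The order of the levels changed among the ligands and not at the top. In control it ran Pdgfrb, Pdgfa, Pdgfc, Pdgfra, Pdgfd, Pdgfb, where the libraries of Pdgfra and Pdgfd overlapped and all other neighbours were apart. In IGF-NS it ran Pdgfrb, Pdgfc, Pdgfa, Pdgfra, Pdgfd, Pdgfb, with overlap between Pdgfa and Pdgfra. In PDGF-NS Pdgfc and Pdgfa overlapped, as did Pdgfd and Pdgfb at the bottom, with Pdgfra between these pairs. Mean FPKM of Pdgfrb was 5.78, 8.82 and 6.22 times that of the next gene in control, IGF-NS and PDGF-NS.

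Pdgfa made up a smaller share of ligand RNA in both treated sets than in control. Its share was 58.6%, 57.9% and 63.1% of summed ligand FPKM in control. In IGF-NS it was 27.1%, 25.7% and 29.8%, and in PDGF-NS 34.6%, 46.3% and 48.7%. No sets overlapped in this share, though the PDGF-NS libraries were spread widely. An exact permutation test of the 3 sets gave p = 0.0036, the smallest possible here, and the pairwise differences of -32.4, -16.7 and 15.7 percentage points each had p = 0.1, the smallest possible for a pair. The mean share of Pdgfc was 28.0% ± 3.8 in control, 58.4% ± 2.3 in IGF-NS and 51.5% ± 5.6 in PDGF-NS (SD, n = 3). The Pdgfc share was not tested, and since the shares add up it goes up where Pdgfa goes down. The level of Pdgfc itself was not called in IGF-NS (adjusted p = 0.07, limma), and its call in PDGF-NS was lost in 15 of 19 alternatives. Pdgfd stood at 8.44% ± 1.35, 11.6% ± 3.6 and 3.28% ± 1.21. The sum of the 4 ligands was 125.7 ± 9.9, 90.1 ± 24.6 and 103.2 ± 14.4 FPKM, a difference that the spread of the IGF-NS libraries (73.6 to 118.3 FPKM) covers in part. These are shares of RNA per length and say nothing of secreted protein.

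Of 15 genes that bind or process PDGF or its receptors there, 12 were tested: 3 were higher and 3 lower in each treated set against control, and 4 were higher and 4 lower in PDGF-NS than in IGF-NS. These calls are 6, 6 and 8 of 12, where 24.9%, 31.0% and 15.9% of all tested genes were called, and nothing particular to the list is read from them. After median ratio scaling or quantile normalization 2 were higher and 4 lower in IGF-NS. Their median log2 fold changes were 0.01, 0.04 and 0.09 as deposited. Plat, tissue plasminogen activator and a protease that activates PDGF-C, rose from 31.8 ± 3.6 FPKM in control to 53.7 ± 8.0 in IGF-NS and 140.3 ± 11.4 in PDGF-NS (SD, n = 3). Its log2 changes against control were 0.73 ± 0.14 (adjusted p = 0.0051) and 2.11 ± 0.14 (adjusted p = 8e-06, limma). The proprotein convertases, which cut PDGF-A and PDGF-B chains, did not move together. Furin rose by 1.15 ± 0.22 in PDGF-NS (57.8 to 128.9 FPKM, adjusted p = 0.003) and was not called in IGF-NS (-0.38 ± 0.22, adjusted p = 0.23). Pcsk5 fell by 1.29 ± 0.15 in IGF-NS (adjusted p = 0.00042) and by 2.07 ± 0.15 in PDGF-NS (adjusted p = 1.4e-05), from 15.8 to 5.88 and 3.03 FPKM. Pcsk6 fell by 0.67 ± 0.14 and by 1.26 ± 0.14 (adjusted p = 0.0079 and 0.00014).

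Sparc, a matrix protein that binds PDGF, was at 8653 ± 391 FPKM in control and fell by 1.02 ± 0.16 in PDGF-NS to 4304 ± 713 FPKM (adjusted p = 0.001, limma), while in IGF-NS it was at 10200 ± 695 FPKM (0.24 ± 0.16, adjusted p = 0.31). Among coreceptors, Nrp2 fell by 0.81 ± 0.15 in IGF-NS (adjusted p = 0.0048) and Lrp6 rose by 0.61 ± 0.13 there (adjusted p = 0.0077). Nrp1 also rose in IGF-NS, by 0.64 ± 0.19 (adjusted p = 0.038, limma), a call lost in 11 of 19 alternatives. Lrp1, an endocytic partner of the receptor beta, was at 133.1 ± 34.7, 122.9 ± 18.1 and 160.3 ± 9.7 FPKM and was not called. Pdgfrl, a receptor-like gene without a kinase, was at 42.8 to 49.6 FPKM in all set means and was not called either.

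Of 26 genes for proteins that bind the receptors or act with those that do, 25 were tested. Against control 5 were higher and 0 lower in IGF-NS, and 5 were higher and 3 lower in PDGF-NS. In PDGF-NS against IGF-NS 3 were higher and 5 lower. These calls, 5, 8 and 8 of 25, stand beside 24.9%, 31.0% and 15.9% over all tested genes, so that against control the list was near the background. The count in IGF-NS was 8 without IGF-NS 3, and that between the treated sets was 5 without IGF-NS 1 or PDGF-NS 3. The median was 0.26, 0.24 and -0.08, of which 0.15, 0.13 and -0.02 is the shift of all genes. In IGF-NS 9 were higher and 0 lower by limma at an unadjusted p under 0.05, and after median ratio scaling 1 was called lower. Stat5a, a transcription factor that receptor kinases phosphorylate, rose by 1.08 ± 0.13 and 1.21 ± 0.13 (4.27, 10.1 and 11.2 FPKM; adjusted p = 0.0005 and 0.00013, limma). Nck1, an adaptor to the actin cytoskeleton, rose by 0.84 ± 0.16 and 0.74 ± 0.16 (adjusted p = 0.0047 and 0.0061). Rasa1, the Ras GTPase-activating protein that docks on the receptor beta, rose by 1.27 ± 0.15 in PDGF-NS (6.56 to 17.1 FPKM, adjusted p = 0.00017), as did the adaptor Shc1 by 0.89 ± 0.11 (61.3 to 114.1 FPKM, adjusted p = 0.00031). The adaptor Gab1 fell there by 0.81 ± 0.12 (adjusted p = 0.0006).

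In IGF-NS other genes of this list rose. Pik3r3, a regulatory subunit of PI3-kinase, rose by 1.16 ± 0.21 (2.71 to 7.45 FPKM, adjusted p = 0.0036, limma). The scaffold Slc9a3r1, which tethers PDGF receptors, rose by 0.89 ± 0.16 (adjusted p = 0.0037), and Grb10, an adaptor that restrains insulin and IGF-1 receptor signalling, by 0.86 ± 0.14 (adjusted p = 0.0022). All 3 were lower in PDGF-NS than in IGF-NS, by -0.87 ± 0.21, -1.03 ± 0.16 and -0.62 ± 0.14 (adjusted p = 0.019, 0.0019 and 0.013). For Pik3r3 that last difference was lost without IGF-NS 2, PDGF-NS 1 or PDGF-NS 3 (adjusted p up to 0.076) and for Grb10 without IGF-NS 1 (0.058).

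Of 18 phosphatases, ubiquitin ligases and other genes listed for control of receptor signalling, 14 were tested. In IGF-NS against control 0 were higher and 1 lower, in PDGF-NS against control 3 were higher and 1 lower, and between the treated sets 2 were higher and 1 lower in PDGF-NS. The background shares are again 24.9%, 31.0% and 15.9%, and in PDGF-NS against control the 4 calls of 14 were near it. That count was 2 without PDGF-NS 2 or PDGF-NS 3, and the count in IGF-NS was 0 without control 2, IGF-NS 1 or 2, or PDGF-NS 2 or 3, and 2 without IGF-NS 3. At an unadjusted p under 0.05 limma had 2 higher and 2 lower in IGF-NS. The median was -0.09, -0.01 and -0.10. Socs3, an inhibitor of cytokine receptor signalling that STAT proteins induce, rose by 2.28 ± 0.39 in PDGF-NS against control (14.2 ± 1.9 to 75.1 ± 25.9 FPKM, adjusted p = 0.0019, limma) and was at 13.2 ± 9.7 FPKM in IGF-NS. Ptpn11, which encodes the phosphatase SHP2, fell by 0.58 ± 0.12 in PDGF-NS (adjusted p = 0.006). Its difference in IGF-NS, -0.39 ± 0.12 (adjusted p = 0.045), was lost in 11 of 19 alternatives, among them leaving out any 1 of the control or IGF-NS libraries or PDGF-NS 2 or 3 (adjusted p up to 0.13). Ptpn1, which encodes PTP1B, was higher in PDGF-NS than in IGF-NS by 1.17 ± 0.20 (adjusted p = 0.0028). Its call against control (0.63 ± 0.20, adjusted p = 0.033) was lost under each of the 3 other scalings, and without control 2 or 3 or any 1 of the PDGF-NS libraries (adjusted p up to 0.12). In each of those scalings this list had 2 higher and 3 lower in PDGF-NS against control. Ptpn2, a phosphatase that acts on JAK and STAT proteins, rose by 0.78 ± 0.21 in PDGF-NS (adjusted p = 0.019), a call lost without PDGF-NS 2 or 3 (adjusted p up to 0.077). Socs1, another inhibitor of cytokine signalling, was lower in PDGF-NS than in IGF-NS (-1.64 ± 0.49, adjusted p = 0.047). Its call was lost in 10 of 19 alternatives, among them leaving out control 2, IGF-NS 1 or 3, or any 1 of the PDGF-NS libraries (adjusted p up to 0.15).

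The kin of the family, the VEGF and KIT branches, were measured as a list of 16 ligand and receptor genes, of which 14 were in the table and 7 were tested. In IGF-NS against control 2 were higher and 2 lower, in PDGF-NS against control 4 higher and 2 lower, and between the treated sets 4 were higher and 0 lower in PDGF-NS. Over all tested genes 24.9%, 31.0% and 15.9% were called. The last count was 2 without IGF-NS 1 or 2 or PDGF-NS 2 or 3. At an unadjusted p under 0.05 limma had 5 higher and 0 lower in that comparison. The median was 0.17, 0.51 and 0.78. Kitlg, the ligand of KIT, rose by 1.10 ± 0.23 and by 2.31 ± 0.23 (4.33, 10.0 and 24.7 FPKM; adjusted p = 0.0078 and 7.5e-05, limma). Pgf, placental growth factor, rose by 1.13 ± 0.25 and 2.06 ± 0.25 (1.05, 3.42 and 7.43 FPKM; adjusted p = 0.01 and 0.00025). Flt1, the VEGF receptor that binds PGF, fell by 2.29 ± 0.22 and 0.88 ± 0.22 (23.2, 3.86 and 12.2 FPKM; adjusted p = 9.9e-05 and 0.012). Vegfc fell by 0.57 ± 0.15 and 0.89 ± 0.15 (adjusted p = 0.021 and 0.0016), and the first of these calls was lost without control 1 or IGF-NS 1 (adjusted p up to 0.079). Csf1, the ligand of the macrophage receptor CSF1R, rose by 1.21 ± 0.21 in PDGF-NS (24.1 to 56.8 FPKM, adjusted p = 0.002).

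**Figure D4:**
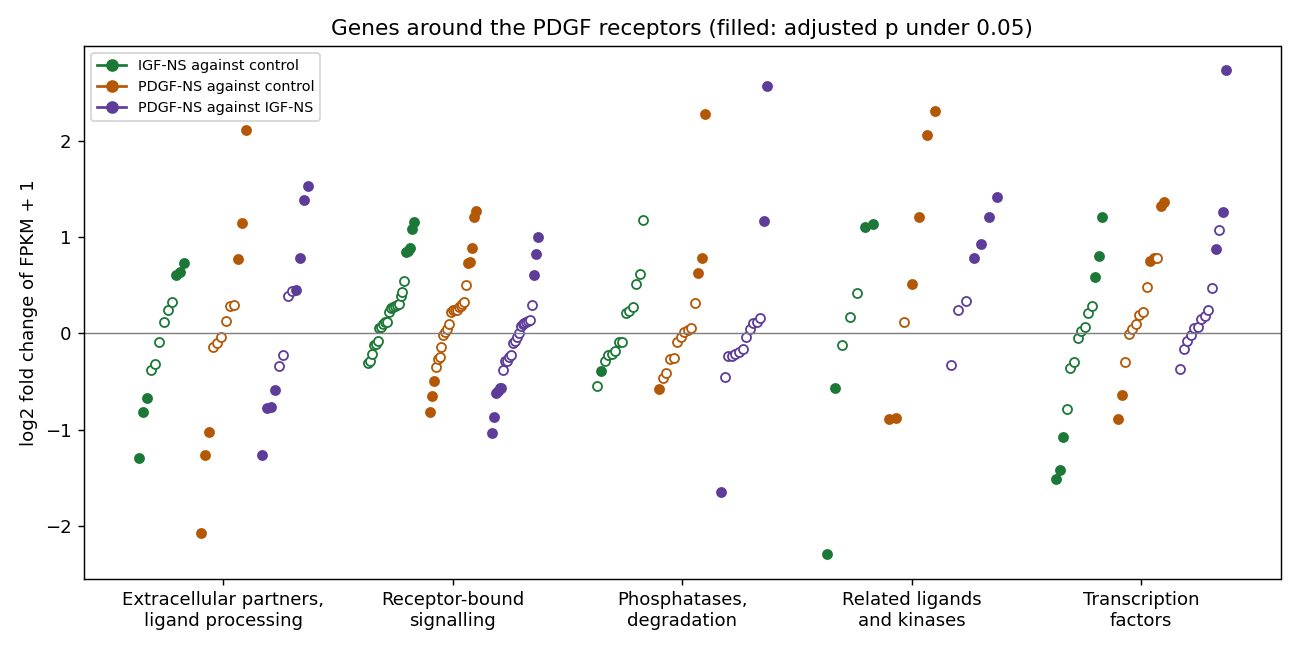
Log2 fold change of FPKM + 1 for the tested genes of 5 lists around the PDGF receptors, each point 1 gene, ordered by size within a list and comparison, filled where the adjusted p was under 0.05. Most genes of the receptor-bound signalling list lie between -1 and 1, and the extremes are Cebpd (2.73) and Socs3 (2.57) between the treated sets and Flt1 (-2.29) in IGF-NS against control.

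Transcription factors that have been reported at PDGF or PDGF receptor promoters were the last list, with 14 of 16 tested. In IGF-NS against control 3 were higher and 3 lower, in PDGF-NS against control 4 higher and 2 lower, and between the treated sets 3 were higher and 0 lower in PDGF-NS. Over all tested genes 24.9%, 31.0% and 15.9% were called. The count in IGF-NS was 3 in place of 6 without IGF-NS 1, and that in PDGF-NS against control 2 in place of 6 without PDGF-NS 3. At an unadjusted p under 0.05 limma had 5 higher and 1 lower between the treated sets. The median was -0.01, 0.21 and 0.16, and after median ratio scaling 1 gene was higher and 4 were lower in IGF-NS against control. Sp3, which binds GC boxes, rose by 1.21 ± 0.17 and 1.36 ± 0.17 (20.6, 48.6 and 53.8 FPKM; adjusted p = 0.00086 and 0.00023, limma). Ets1 fell by 1.51 ± 0.13 and 0.64 ± 0.13 (13.0, 3.92 and 8.04 FPKM; adjusted p = 6.5e-05 and 0.0047). Cebpd went in opposite directions: it fell by 1.42 ± 0.33 in IGF-NS (adjusted p = 0.012) and rose by 1.32 ± 0.33 in PDGF-NS (adjusted p = 0.013), at 31.1, 12.1 and 80.1 FPKM. The first was lost without IGF-NS 1 (adjusted p = 0.051) and the second without PDGF-NS 3 (0.057), while the difference of 2.73 ± 0.33 between the treated sets (adjusted p = 0.00043) held in all 19 alternatives. Klf5, at 2.80 FPKM in control, fell by 1.07 ± 0.27 and 0.89 ± 0.27 (adjusted p = 0.018 and 0.031), calls lost without control 3 or IGF-NS 1 (adjusted p up to 0.063) and without control 1 or 3 or PDGF-NS 1 or 3 (up to 0.1). Cebpb was higher in PDGF-NS than in IGF-NS by 1.26 ± 0.32 (adjusted p = 0.024), a call lost without IGF-NS 1 or 2 or PDGF-NS 1 or 3 (up to 0.09). Egr1, an early response gene known to act at the Pdgfa and Pdgfb promoters, was not called, and its PDGF-NS libraries were widely spread (81.1 ± 6.1, 67.4 ± 19.5 and 174.0 ± 144.1 FPKM; SD, n = 3). Binding was not measured, and no link between these factors and the windows shown was tested.

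Cell type markers moved with the sets, and their part in the differences of the PDGF genes was not tested. In bulk RNA fewer cells of a type and less RNA per cell cannot be told apart. The marker counts here and in the next paragraph stand beside 24.9% of all tested genes called in IGF-NS against control and 31.0% in PDGF-NS against control. As deposited, 17.4% were higher and 7.48% lower in IGF-NS, and 20.7% higher and 10.2% lower in PDGF-NS. The summed FPKM of 9 smooth muscle markers was 2598 to 3717 in control and did not overlap with the treated sets, at 644.8 to 686.5 (IGF-NS) and 419.5 to 457.6 (PDGF-NS). Of 8 tested markers 6 were lower in IGF-NS, and 6 were lower and 1 higher in PDGF-NS. The one that was higher was Des, desmin, which rose from 1.51 to 5.18 FPKM in PDGF-NS (1.30 ± 0.17, adjusted p = 0.00036, limma) and fell by 0.95 ± 0.17 in IGF-NS (adjusted p = 0.0037). Tagln and Cnn1 dominated this sum, with Tagln at 1740 to 2698 FPKM in control, while Myh11, a marker of mature smooth muscle, was at 1.31 to 2.60 FPKM even there. Among 9 fibroblast markers, which overlap in tissue with Pdgfra, the sum was 2832 to 4090 in control. In IGF-NS it was 4851 to 6189, and in PDGF-NS 2818 to 3446, the latter overlapping control, and Col1a1, not called against control, held most of it, at 2371 to 3686 FPKM in control. Of the 8 tested, 3 were higher and 1 lower in IGF-NS, and 4 higher and 1 lower in PDGF-NS, and Tcf21 was listed at 0 in all libraries. Those that were lower were Gsn in IGF-NS (-0.62 ± 0.18, adjusted p = 0.029, limma) and Mfap5 in PDGF-NS (-1.52 ± 0.17, adjusted p = 0.00014). Dcn and Dpt were called higher in both sets, by 3.33 and 1.13 on the log2 scale in IGF-NS and by 0.95 and 3.31 in PDGF-NS. Lum, a collagen-binding proteoglycan, was called higher in both sets; its libraries ran from 276.4 to 394.7 FPKM in control, while those of IGF-NS ran from 1733 to 1883 and those of PDGF-NS from 773.0 to 1261.

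The sum of 8 pericyte markers was 175.7 to 237.2 FPKM in control, with IGF-NS at 173.7 to 179.2 and PDGF-NS at 304.1 to 428.3. Of 5 tested 1 was higher and 1 lower in IGF-NS and 2 were higher and 2 lower in PDGF-NS. In this list Rgs5 and Higd1b, markers of pericytes in vivo, were listed at 0 in all libraries, and Anpep accounted for 137.6 to 233.8 FPKM and Abcc9 for 136.4 to 141.5 FPKM in PDGF-NS, both called higher there. Mcam fell by 1.76 ± 0.19 in IGF-NS and by 2.60 ± 0.19 in PDGF-NS (adjusted p = 0.00022 and 1.2e-05, limma), and Notch3 fell by 1.85 ± 0.25 in PDGF-NS (adjusted p = 0.00049). Of the endothelial markers, read here because endothelium is a source of Pdgfb, Cdh5, Kdr, Emcn and Cldn5 were listed at 0 everywhere. The sum of 10 genes was 10.8 to 11.1 FPKM in control and at most 9.38 in the treated libraries. Erg held most of the control sum, at 7.32 to 8.76 FPKM, and was called lower in IGF-NS (-1.24 ± 0.27, adjusted p = 0.0091, limma). Of 5 platelet markers Pf4 and Ppbp were listed at 0, and the sum was 5.33 to 11.4 FPKM over all libraries. Nearly all of that sum was Gp1bb, at 5.29 to 10.9 FPKM. The sum of the 7 macrophage and leukocyte markers found was 0.133 to 0.482 FPKM in control. It was 0.124 to 1.32 FPKM in IGF-NS and reached 1.76 to 9.41 FPKM in PDGF-NS, led there by Cd68, with Ptprc, Aif1 and Cd163 listed at 0. The 6 cardiomyocyte markers summed to 10.6 to 23.2 FPKM in control, overlapped by 8.66 to 19.8 FPKM in IGF-NS, and to 1.96 to 5.33 FPKM in PDGF-NS, with Myh6 listed at 0. Tnnt2 made up most of the control sum, at 9.73 to 21.2 FPKM.

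Genes whose pattern was most like that of each member were found by Pearson correlation of log2(FPKM + 1) over the 9 libraries, among the 8686 genes that averaged 5 FPKM or more. The 9 points share their sets, so that any gene which differs between the sets in the same way scores high, and the values are given as a description. For Pdgfra the nearest were Gnpda1 (0.992), Aldoc (0.989) and Nol7 (0.984). Gnpda1, an enzyme of glucosamine catabolism, was at 49.7, 101.0 and 133.2 FPKM in control, IGF-NS and PDGF-NS, and Aldoc, a glycolytic aldolase, at 7.01, 20.4 and 38.3 FPKM. For Pdgfa they were Atxn1 (0.980), Foxs1 (0.974) and Clip1 (0.973), of which Foxs1, a forkhead factor, was at 298.4, 138.6 and 200.5 FPKM. For Pdgfd they were Tns3 (0.985), Brd3 (0.979) and Zbtb24 (0.976), with Tns3, a tensin of focal adhesions, at 51.6, 46.5 and 22.2 FPKM. For Pdgfrb they were Sppl3 (0.979), Gpsm1 (0.966) and Abcb8 (0.966), for Pdgfc Pcnxl4 (0.954), Nubpl (0.949) and Nr2c2 (0.942), and for Pdgfb Gprc5a (0.976), Sqrdl (0.946) and Lsr (0.946). No member of the family was among the nearest genes of another.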

How the data were processed

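Gene-level FPKM for 9 libraries were deposited by the authors in 1 table, made with GSNAP and Cufflinks per the submitters' processing notes. Versions, genome build and annotation were not given in the sources used here. Read depth is not known, so no counting interval is printed. Libraries were tied to sample records through the column name in each record. Of 26407 rows, 4 genes with the value 999999999 in any of 10 cells were read as failed estimates and left out, as were 2 duplicated rows listed at 0. In 31 genes with a median over 5 FPKM a library was listed at 0, so such a 0 can be a failed estimate.

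Log2(FPKM + 1) of the 11376 genes averaging 1 FPKM or more was fitted with limma 3.58.1 (R 4.3.3), with a variance trend, the set as only term and all 9 libraries. P-values are two-sided, with Benjamini-Hochberg adjustment over all tested genes of a comparison. For low genes these log2 differences are smaller than the ratio of their FPKM. The receptor ratio and the Pdgfa share of summed ligand FPKM were tested by exact permutation over libraries. The members and the gene lists were chosen with earlier results of these data known. Named genes are the 6 members, up to 4 called genes of a list and comparison with the largest change, the 3 genes most correlated with each member, and markers. Lrp6, Nrp1, Lrp1, Pdgfrl, Nck1 and Egr1 fall outside this rule and were chosen after their values were seen. For symbols with several rows (Ptprk, Ybx1) the row with the highest mean was used; Ybx1, which the rule would name, is left out as uncertain. Alternatives were the pseudocount, the filter, the scaling, the samples fitted, the variance trend, a replicate block and each library left out. The fit was also run on data simulated from its own variances with independent libraries, which cannot show how well its calls hold in the real libraries.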

Additional observations from a re-analysis of the deposited data

How the results depend on the processing

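Of 339 values for single members under an alternative, 288 kept their direction and side of the threshold, 35 lost a call, 3 gained one and 13 changed sign without being called. Counts for the gene lists were within 1.5 times in 263 of 285 cases. Of the 6 members, 4 were called in PDGF-NS against control. The count was 3 under either other pseudocount, each of the 3 other scalings, no variance trend and the replicate block. It was 2 when low genes were not filtered and 2 to 4 with a library left out. Between the treated sets 2 were called, with 1 under a pseudocount of 0.1, without a filter, with only the 2 sets fitted, without a variance trend and with the replicate block, and 1 to 2 with a library left out. The cause was not tested. Exact permutation tests gave p = 0.0036 to 0.0071 for the receptor ratio and 0.0036 to 0.014 for the Pdgfa share. These ranges say little about stability, since the p as deposited is the smallest possible. Scaling a whole library leaves the Pdgfa share the same and changes the receptor ratio only through the 1 FPKM added to each gene.

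Signs changed for differences within error. Pdgfrb in IGF-NS against control was -0.06 after median ratio scaling and, with a library left out, -0.02 to 0.29. Pdgfd in that comparison was -0.23 to 0.08 with a library left out. Between the treated sets Pdgfb was -0.04 with a pseudocount of 5, -0.06 with a common FPKM sum and -0.46 to 0.55 with a library left out, and Pdgfc was -0.1 with a common FPKM sum and -0.07 to 0.23 with a library left out. With a filter at 5 FPKM Pdgfb was not tested.

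Over all genes the calls fell from 2827 to 1757 in IGF-NS against control without IGF-NS 1, and from 1807 to 1014 between the treated sets without PDGF-NS 3. The cause was not tested. Replicate numbers do not pair the libraries by any label. Deviations of same-numbered libraries correlated from -0.276 to 0.253 over 9 pairs, 2 of them over 0.1, and a library correlated best with its own number in 3 of 18 cases. With the replicate block 2457, 3221 and 1530 genes were called (2827, 3521 and 1807 without), and Pdgfa between the treated sets (adjusted p = 0.058, limma) and Pdgfc in PDGF-NS against control (0.089) were no longer called.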
